A study of Mus musculus with 7 samples.

Results

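The cell cycle inhibitors and the p53 axis were followed through all 7 libraries by 9 genes chosen by name: Cdkn1a, Cdkn1b, Cdkn1c, Cdkn2a, Cdkn2b, Cdkn2c, Trp53, Mdm2 and Rb1. They are 9 of the 21938 protein-coding genes of GENCODE M21 on mouse build mm10. For each gene, peaks were collected over the gene body and 3 kb to each side of every annotated transcript start.

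The study asks what the telomere-binding protein TRF2, encoded by Terf2, does in muscle stem cells (MuSCs), the Pax7-positive cells that rebuild skeletal muscle. Chromatin accessibility was mapped by ATAC-seq, which marks open DNA by transposase insertion, in MuSCs of uninjured hind limb muscle labelled 0 h, with 2 Control libraries and 2 TRF2KO libraries. TRF2 occupancy was mapped by CUT&Tag, which cuts DNA beside an antibody-marked protein, with 2 TRF2 libraries and 1 rabbit IgG library. TRF2KO stands for mice with floxed TRF2 alleles and Pax7-CreERT2, given tamoxifen as young adults on a C57BL/6 background. Cre is driven from the Pax7 locus, so recombination is limited to cells that were Pax7-positive when tamoxifen was given. The paper calls the ATAC Control cells control or wild-type and does not state whether those mice carried Cre or received tamoxifen. All 4 ATAC libraries carry the genotype entry Wildtype in their labels, and the groups here follow the titles. The CUT&Tag cells were TRF2-proficient, from control mice given in the methods as Pax7gCre/gCre;TdTomatofl/fl. They came from injured muscle, labelled 3 days after notexin in the tibialis anterior, whereas the methods give an earlier time and name the gastrocnemius as well. ATAC and CUT&Tag libraries therefore differ in genotype, injury and muscle as well as in assay. The ages of the mice at isolation, and whether a library pooled animals, are not given in the sources used here.

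Cyclin-dependent kinase inhibitors halt the cell cycle in 2 families. Cdkn1a, Cdkn1b and Cdkn1c encode p21, p27 and p57, which bind cyclin-CDK complexes broadly, while Cdkn2a, Cdkn2b and Cdkn2c encode INK4 proteins that block CDK4 and CDK6. Both lead to RB1, which in its active form holds E2F factors silent. Trp53 encodes p53, a transcription factor stabilized by DNA damage that induces Cdkn1a, and Mdm2 encodes the ubiquitin ligase that degrades p53 and is itself induced by p53. In adult MuSCs these inhibitors are known for their part in quiescence, and uncapped telomeres are a classical trigger of p53.

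The sequences that the results turn on are shown first. The gene Cdkn1a (ENSMUSG00000023067.14, chr17:29090976-29100727, plus strand) has an upstream and a downstream promoter. The 250 bases before each RefSeq start (RefSeq sequence, GRCm38.p6) show how unlike they are. In the upstream one, chr17:29090729-29090978, capitals mark a match to the p53 response element, the pair of adjoining 10-base elements that p53 binds. In the downstream one, chr17:29093519-29093768, capitals mark CpG dinucleotides.
Cdkn1a upstream promoter: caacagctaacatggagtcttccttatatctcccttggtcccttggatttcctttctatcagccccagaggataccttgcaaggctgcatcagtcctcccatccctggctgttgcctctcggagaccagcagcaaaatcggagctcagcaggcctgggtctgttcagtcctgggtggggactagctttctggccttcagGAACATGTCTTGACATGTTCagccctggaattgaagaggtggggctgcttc
Cdkn1a downstream promoter: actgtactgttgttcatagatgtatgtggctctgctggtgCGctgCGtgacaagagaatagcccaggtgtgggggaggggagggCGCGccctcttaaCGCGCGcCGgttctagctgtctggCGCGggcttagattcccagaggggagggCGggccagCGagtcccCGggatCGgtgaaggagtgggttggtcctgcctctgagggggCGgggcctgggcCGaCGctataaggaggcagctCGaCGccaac
The upstream window of 300 bases, 50 of them past the start, held 2 CpG dinucleotides at a GC content of 54.7%. Its downstream counterpart held 23 at 64.7%. The median GC content over 32851 RefSeq promoters of the same length was 52.7%. RefSeq promoter sequences were matched for 7 of the 9 genes.

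The p53 element began at -48 from the first annotated start, at chr17:29090928-29090947, with 1 mismatch to the 20-base consensus outside its fixed C and G positions. The search covered both strands, since the consensus is its own reverse complement, with no spacer between the 10-base elements. A second p53 element is shown for Mdm2, because it lies under the TRF2 peaks of that gene in both libraries. It sits at chr10:117710105-117710124 and carries 3 mismatches. Other matches with 3 mismatches, at Cdkn1b (chr6:134920182-134920201) and Rb1 (chr14:73325962-73325981), lay under a TRF2 peak of replicate 2 only. Capitals mark the core of each element shown.
Cdkn1a: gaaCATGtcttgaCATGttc
Mdm2: ggtCAAGttgggaCACGtcc
A match with at most 1 mismatch was found in 0.283% of 2031-base windows around coding gene starts and in 0.471% of such windows around the peak summits of the library TRF2KO 2. With 3 mismatches allowed the shares were 9.17% and 11.3%, so the Mdm2 match is of a common kind. A match with 1 mismatch was not particular to Cdkn1a. Mdm2 held one at chr10:117699921-117699940 and Cdkn2b one at chr4:89308400-89308419, both outside every peak of every library. The pattern was searched after the peaks had been seen, and a match is a description of the letters and not a binding event.

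The main measure of accessibility is the fold enrichment at the summit of a MACS peak over background, as deposited. A gene's promoter rank is the percentile, within the peak list of 1 library, of its strongest peak within 3 kb of a start. The rank is used because fold depends on depth. The ATAC lists held between 84102 and 100521 peaks on chromosomes 1 to 19, X and Y. The median background pileup recovered from them was 4.56 in Control 2 and 3.35 to 3.41 in the other 3 libraries, and this background follows the number of fragments. Total reads per library are unknown. In bulk libraries, fewer open cells and less opening per cell cannot be told apart. The TRF2 lists held 12290 and 15479 peaks and the IgG list 656. At Terf2 itself the promoter peak had folds of 54.3 and 48.4 in Control and 21.5 and 18.6 in TRF2KO, a log2 difference of -1.21 ± 0.12 (SE, limma, adjusted p = 0.0287). Of the MuSC marker Itga7, the region chr10:128931358-128931904 was lower in TRF2KO (log2 -1.05 ± 0.13, SE; limma, adjusted p = 0.0359). Its region chr10:128933292-128939538 differed by -0.13 ± 0.12 (SE; limma, adjusted p = 0.471). All 9 MuSC markers, Itga7 included, had a promoter peak in all 4 ATAC libraries. Their summed ranks lay at 829 and 835 in Control and at 818 and 822 in TRF2KO. Of the 4 leukocyte markers, Ptprc and Itgam had no peak in any library, Cd68 ranked at 95.1 to 96.1 and Csf1r at 43.3 to 53.6. Summed Schwann cell ranks were 211 and 223 in Control and 165 and 179 in TRF2KO. Of these markers, Sox10 ranked at 41.7 and 52.4 in Control and at 16.1 in TRF2KO 2, with no peak in TRF2KO 1. Both muscle fibre and Schwann markers with a peak in all 4 libraries ranked lower in both TRF2KO libraries (3 of 3 and 2 of 2). So did 5 of the 9 MuSC markers and 31% of the coding genes with a peak in all 4 libraries. The sums overlapped for endothelial markers (150 and 174 against 150 and 165) and muscle fibre markers (235 and 282 against 218 and 256), and for leukocyte markers (143 and 147 against 138 and 149). They were higher in TRF2KO for fibro-adipogenic markers (106 and 115 against 118 and 124) and pericyte markers (153 and 159 against 163 and 190), through Ly6a (13.8 and 5.22) and Rgs5 (38.0 and 12.7), which had a peak in TRF2KO only. Pdgfra and Pdgfrb, with a peak in all 4 libraries, ranked lower in both TRF2KO libraries (differences of -1.14 and -3.32 points), and Myh11 overlapped. The part of these differences in the results was not tested.

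All 9 genes had a promoter peak in all 4 ATAC libraries, against 67.7% of protein-coding genes. Their ranks ran from 70.1 for Cdkn2a in TRF2KO 1 to 98.7 for Cdkn1a in the same library. In Control, the order of mean ranks from high to low was Cdkn1a, Cdkn1b, Trp53, Cdkn2c, Mdm2, Cdkn2b, Cdkn1c, Rb1 and Cdkn2a. Of the neighbours in this order, only Mdm2 (89.8 and 92.6) and Cdkn2b (90.0 and 91.9) overlapped. Trp53 and its target Cdkn1a ranked at 96.3 or above in every library of either genotype. Of the 35 annotated starts of the 9 genes, 24 lay inside a peak in all 4 libraries and 6 in none. The share over all annotated starts is not given here, so these counts describe the 9 genes only.

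**Figure D1:**
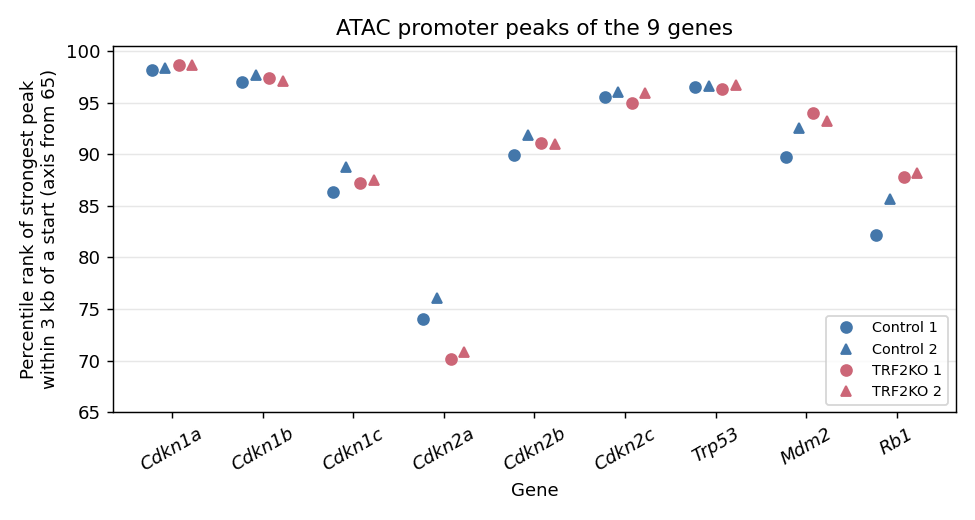
Percentile rank of the strongest ATAC peak within 3 kb of a start (y axis, percentile of the library's own list, axis from 65) for the 9 genes, 1 point per library (blue Control, red TRF2KO; circle replicate 1, triangle replicate 2). Both TRF2KO points lie above both Control points for Cdkn1a, Mdm2 and Rb1 and below them for Cdkn2a.

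The widest genotype difference in peak coverage was at Cdkn1a, the p53 target that encodes p21. Its first exon and upstream start lay inside a peak in both TRF2KO libraries and in neither Control library. In TRF2KO 2 a separate peak at chr17:29090412-29092442 had a fold of 63.1, a -log10 q of 411 and a rank of 92.3, with its summit at chr17:29091021, in the first exon and 42 bases past the start of the coding transcript Cdkn1a-202. In TRF2KO 1 the upstream start was part of 1 peak of 11882 bases, chr17:29090117-29101998, whose summit at 142-fold lay at the downstream start, so the upstream start has no value of its own there. The Control peaks began only at chr17:29093313 and chr17:29093309. The lowest folds listed anywhere in the Control lists were 2.53 and 2.34. Thus the first exon was accessible above the calling threshold in TRF2KO alone by this caller, and the p53 element printed above lay in that stretch.

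The stretch covered in both TRF2KO libraries and in neither Control library, chr17:29090412-29092442, was 2031 bases long. Of 1801 stretches of at least 200 bases with that pattern in the genome, it was the widest, and the median was 252 bases. Such a stretch occurred in 4.68% of coding gene loci, and the reverse pattern in 16.4%. These shares are over all coding genes, of which 67.7% had a promoter peak in all 4 libraries. They are not matched for openness or locus length. In all, 3 of the 9 genes held at least 1 of the first kind, Cdkn1a, Mdm2 and Rb1, and 2 held 1 of the second kind, Cdkn1c and Cdkn2c. At Mdm2 and Rb1 the stretches were 210 to 267 bases long and lay at the margins of peaks that all 4 libraries had. Among coding transcript starts, 0.239% lay inside a peak in both TRF2KO and neither Control, and 0.469% the reverse. Of the 19 coding starts of the 9 genes, only that of Cdkn1a-202 did so. The stretches were defined after the peaks had been seen, and 2 libraries against 2 cannot give an exact p below 0.333.

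The other callers were compared at the same start. GoPeaks had a region over it in TRF2KO 1, chr17:29090501-29101750, and in TRF2KO 2, chr17:29090601-29092150, and its Control regions began at chr17:29093401 and chr17:29093301. SEACR, whose regions were wide, covered the start in all 4 libraries, from chr17:29090621 in Control 1 and within a region of 82160 bases in Control 2. The SEACR lists thus do not show the difference between genotypes. The consensus lists used here had a region over the other 8 genes in both genotypes and none over Cdkn1a. Of 1571 genes with a promoter rank of at least 98 in all 4 libraries, 60 (3.82%) had no consensus region. The authors removed blacklisted regions before building that consensus, and whether this applied to Cdkn1a was not tested.

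**Figure D2:**
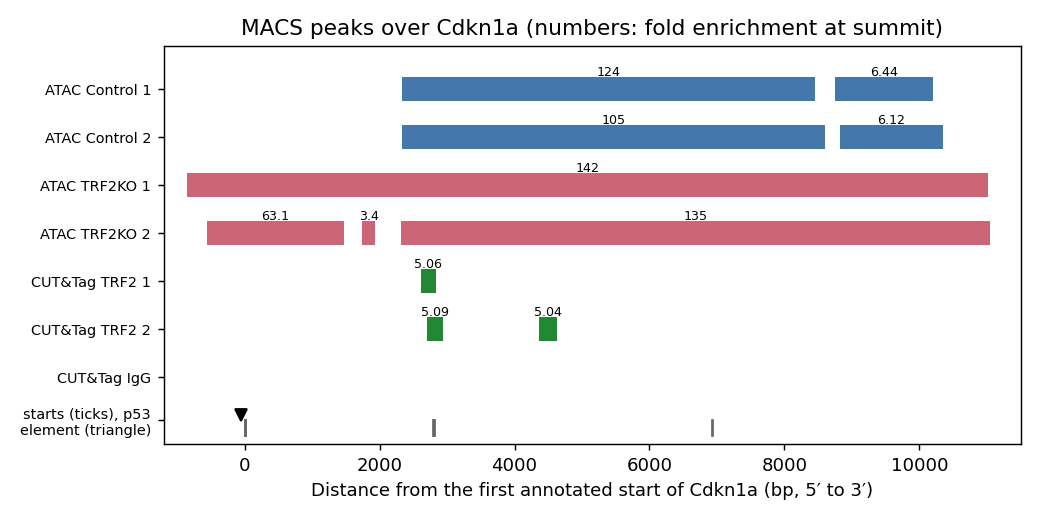
MACS peaks over Cdkn1a in the 7 libraries, as bars along the distance from the first annotated start (x axis, bp), with the fold enrichment at the summit above each bar; ticks mark annotated starts and the triangle the p53 element. ATAC bars reach the first start in TRF2KO only. The TRF2 peaks lie at the starts of Cdkn1a-201 and Cdkn1a-205 or, for 1 peak of replicate 2, between these and the start of Cdkn1a-203.

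The downstream promoter of Cdkn1a was open in every library. Its peak had folds of 124 and 105 in Control and 142 and 135 in TRF2KO. The summit lay at chr17:29095582 in both Control libraries, in an intron 1801 bases past the start of Cdkn1a-205, and at chr17:29093784 in both TRF2KO libraries, 3 bases past that start. The position of the highest signal thus differed between genotypes although the peak was shared. The rank was 98.3 ± 0.0983 (SD, n = 2) in Control and 98.6 ± 0.0336 (n = 2) in TRF2KO, and the ranges did not overlap, although 23.7% of coding genes rose as far or further. Over the merged region limma gave a log2 difference of 0.42 ± 0.12 (SE; adjusted p = 0.103). For Cdkn1a, rank and log2 differences compare the strongest summits, which lay at different sites in Control and TRF2KO. The Control fold at the downstream start itself is not known. The log2 differences also depend on the centring, which in the fit uses the regions shared by all 4 libraries. Centred on the median of each library's whole list, the promoter differences were 0.19 for Cdkn1a, 0.37 for Mdm2, 0.46 for Rb1 and -0.28 for Cdkn2a, against 0.42, 0.60, 0.69 and -0.05 in the fit. The unnamed transcript AC167363.2 overlaps this promoter on the minus strand.

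At the promoters of the remaining CIP/KIP genes, limma gave log2 differences somewhat below the 0.42 ± 0.12 of Cdkn1a. They were 0.30 ± 0.12 for Cdkn1b and 0.26 ± 0.12 for Cdkn1c (SE, adjusted p = 0.162 and 0.203). Cdkn1b (ENSMUSG00000003031.14, chr6:134920401-134925513) had promoter folds of 103 and 94.5 in Control and 115 and 105 in TRF2KO. Both TRF2KO folds were thus above both Control folds, whereas the ranks overlapped, with a difference of -0.0760 points. A weaker peak about 3 kb upstream had folds of 9.21 and 6.12 in Control and 6.18 and 4.54 in TRF2KO, so the groups overlapped, and limma gave a log2 difference of -0.36 ± 0.19 (SE; adjusted p = 0.258). Cdkn1c (ENSMUSG00000037664.13, chr7:143458339-143461050), an imprinted gene, had 3 peaks in each ATAC library. At the promoter the folds were 41.9 and 39.2 in Control and 45.1 and 42.9 in TRF2KO, and the rank difference was -0.199. The antisense gene Gm44732 overlaps Cdkn1c, and ATAC signal does not tell the strands apart.

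Among the INK4 genes, Cdkn2a and Cdkn2b lie side by side on chromosome 4. Cdkn2a (ENSMUSG00000044303.6, chr4:89274471-89294653) makes p16INK4A and p19ARF from separate starts. The p19ARF start had folds of 21.2 and 17.6 in Control and 17.2 and 16.6 in TRF2KO. The p16INK4A start had 8.98 and 8.46 in Control and 8.46 and 8.17 in TRF2KO, so the start of this senescence marker was the weaker of the pair in every library and its groups met at 8.46. The Cdkn2a rank was 75.1 ± 1.41 (SD, n = 2) in Control and 70.5 ± 0.480 (n = 2) in TRF2KO, without overlap, and 9.01% of coding genes dropped as far or further. The limma fit gave log2 differences of -0.05 ± 0.12 at the p19ARF region and 0.08 ± 0.12 at the p16INK4A region (SE; adjusted p = 0.802 and 0.684). Cdkn2b (ENSMUSG00000073802.5, chr4:89306299-89311039) had a single peak, with folds of 53.9 and 50.03 in Control and 60.6 and 56.7 in TRF2KO and overlapping ranks. Its log2 difference was 0.32 ± 0.12 (SE, limma, adjusted p = 0.150). Cdkn2c (ENSMUSG00000028551.14, chr4:109660876-109667189) encodes p18INK4C, and its promoter folds of 87.7 and 75.4 in Control overlapped those of 85.8 and 90.6 in TRF2KO. There the log2 difference was 0.26 ± 0.13 (SE, limma, adjusted p = 0.230). A peak in its coding exon had folds of 7.82 and 7.74 in Control and 5.72 and 4.31 in TRF2KO (log2 -0.50 ± 0.15, SE; adjusted p = 0.114, limma).

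Trp53 (ENSMUSG00000059552.13, chr11:69580359-69591873) shares a divergent promoter with Wrap53. Its folds were 97.6 and 80.8 in Control and 100.9 and 99.6 in TRF2KO. Its ranks, 96.5 and 96.6 against 96.3 and 96.7, overlapped, and the difference of the means was -0.0224 points. In fold, the log2 difference was 0.32 ± 0.12 (SE, limma, adjusted p = 0.158). The summit lay at -948 from the first Trp53 start in all 4 libraries, that is, inside Wrap53, so the peak cannot be assigned to either gene.

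Mdm2 (ENSMUSG00000020184.15, chr10:117688875-117710758) had 1 promoter peak whose folds were 53.2 and 53.3 in Control and 78.0 and 68.3 in TRF2KO. Both TRF2KO libraries were above both Control libraries in fold and in rank, 94.0 and 93.2 against 89.8 and 92.6. The peak was also wider in TRF2KO, 2464 and 2249 bases against 1666 and 1654. The limma fit gave a log2 difference of 0.60 ± 0.13 (SE; adjusted p = 0.0692), which misses the threshold of 0.05. A rise of promoter rank this large was seen in 6.78% of coding genes.

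Rb1 (ENSMUSG00000022105.6, chr14:73183673-73325822) is the longest of the genes and had 5 regions with a peak in all 4 libraries. The region at chr14:73313158-73314180, in the intron about 12 kb past the coding start, rose in TRF2KO. Its folds were 8.75 and 8.10 in Control and 14.2 and 13.6 in TRF2KO, a log2 difference of 0.87 ± 0.12 (SE; adjusted p = 0.0373, limma). It was the only region of the 18 tested across the 9 genes to pass. Over all 61610 regions, 1.03% passed as higher and 1.5% as lower in TRF2KO. At the coding start the folds were 32.2 and 31.1 in Control and 47.1 and 45.4 in TRF2KO, with no overlap (log2 0.69 ± 0.12, SE; adjusted p = 0.0517). The peak near the internal start Rb1-206, where the gene Lpar6 lies within Rb1, had 32.4 and 30.1 in Control and 29.5 and 25.2 in TRF2KO (log2 -0.05 ± 0.12, SE; adjusted p = 0.810). In Control 1 this peak ranked at 82.2 and that of the coding start at 82.1, so the former gives the Rb1 promoter rank there. In the other libraries the coding start gives it. Over coding transcripts alone the rank difference of Rb1 was 4.15, against 4.09 over all starts. With any 1 of the 4 libraries left out, none of the 61610 regions passed (10910 to 13943 had an unadjusted p under 0.05), and the adjusted p of the Rb1 intron region ran from 0.0817 to 0.167.

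**Figure D3:**
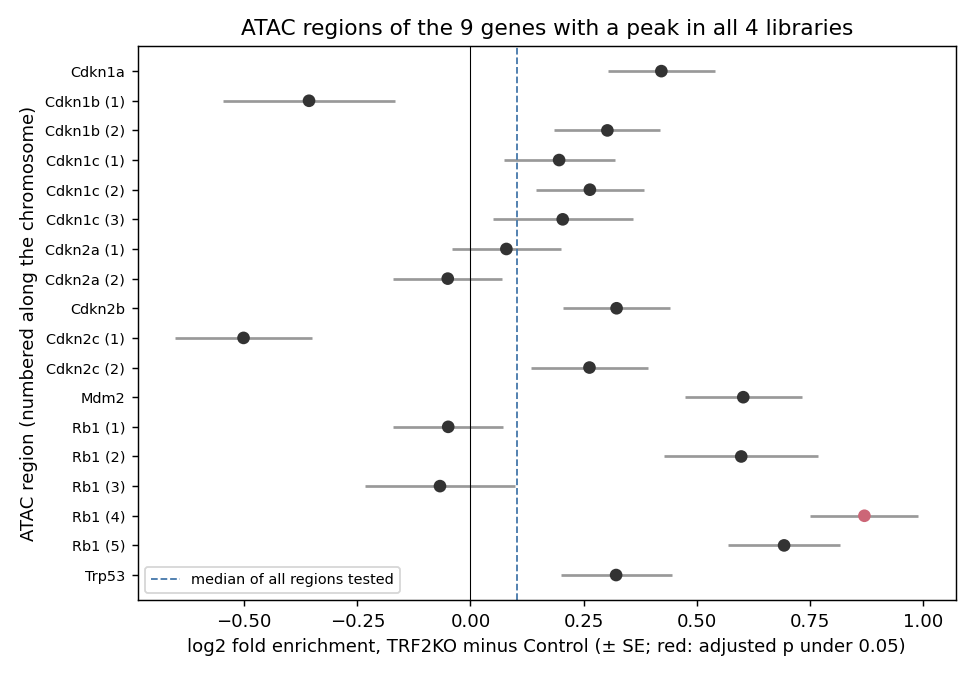
Difference of log2 fold enrichment, TRF2KO minus Control (x axis; bars, SE of the limma fit over 4 libraries), for the 18 ATAC regions of the 9 genes with a peak in every library. The red point, at 0.87, is the Rb1 intron region with an adjusted p under 0.05, and the dashed line is the median of all 61610 regions, 0.10.

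As a group the 18 regions had a median log2 difference of 0.26, against 0.10 over all regions tested (-0.04 without centring, where the 18 had 0.12) and 0.19 over the 25040 regions within 3 kb of a start. An unadjusted p under 0.05 was reached by 9 of the 18 and by 17718 of the 61610. Of the 9 promoter ranks, 3 were higher in both TRF2KO than in both Control libraries (Cdkn1a, Mdm2 and Rb1) and 1 was lower (Cdkn2a). Over 14858 coding genes with a peak in all 4 libraries the shares were 9.11% higher and 31% lower. Ranks also move with the length of a list, since more weak peaks raise the percentile of a fixed peak, and both Control lists were longer than both TRF2KO lists. List length and genotype cannot be told apart in these ranks. The median rank difference of the 9 genes was -0.0224 points, against -0.295 over all coding genes. The exact permutation p was 0.333, the smallest that 2 against 2 allows, for Cdkn1a, Cdkn2a, Mdm2 and Rb1, and 0.667 to 1 for the others (two-sided). Whole merged regions found in both libraries of 1 genotype and neither of the other made up 1.12% (TRF2KO) and 4.48% (Control) of 122720 regions, and none of the 30 regions at the 9 genes was among them, since the Cdkn1a peaks merge into 1 region.

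**Figure D4:**
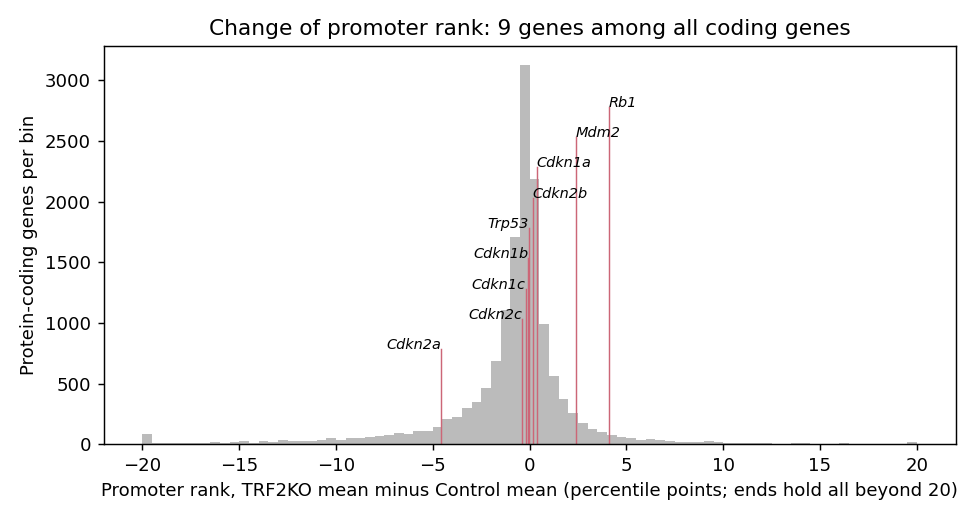
Number of protein-coding genes (y axis) by difference of mean promoter rank, TRF2KO minus Control (x axis, percentile points, bins of 0.5), with the 9 genes marked by lines. Rb1 and Mdm2 lie at 4.09 and 2.40, Cdkn2a at -4.58, and the other 6 within the central peak.

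The pathway around these genes was read from 3 lists. Of 24 p53 targets, 7 had a promoter rank higher in both TRF2KO than in both Control libraries and 7 a lower one, with a median difference of 0.571 points. Over all coding genes these shares were the 9.11% and 31% given above. In the limma fit of their 36 regions near a start, 2 passed as higher and none as lower, against 1.03% and 1.5% of all regions. The regulators had 24 such regions and the RB and cyclin-CDK genes 40. Pmaip1, which encodes the death-promoting protein NOXA, had folds of 29.2 and 28.4 in Control and 49.4 and 49.0 in TRF2KO (log2 0.92 ± 0.13, SE; adjusted p = 0.0378). Bbc3, which encodes PUMA, had 46.7 and 46.3 in Control and 84.6 and 69.9 in TRF2KO (log2 0.87 ± 0.13, SE; adjusted p = 0.0414). Of 16 p53 regulators, 2 ranked higher and 5 lower in TRF2KO, and 1 passed as lower, Hipk2, a kinase of p53. One of its 2 regions near a start, chr6:38839994-38841145, had folds of 25.5 and 22.0 in Control and 13.0 and 13.2 in TRF2KO (log2 -0.71 ± 0.12, SE; adjusted p = 0.0494), and the other had a log2 difference of 0.41 ± 0.13 (SE; limma, adjusted p = 0.120). Of 23 RB and cyclin-CDK genes, 3 ranked higher and 5 lower, and 1 passed as lower, Ccnd1, which encodes cyclin D1. One of its 2 regions, at chr7:144932657-144936370 had folds of 30.4 and 30.6 in Control and 14.2 and 11.1 in TRF2KO (log2 -1.13 ± 0.15, SE; adjusted p = 0.0359), and the other had 0.23 ± 0.12 (SE; limma, adjusted p = 0.240). The median log2 differences of the 3 lists' regions were 0.29, 0.30 and 0.28 for regulators, targets and RB genes, against 0.19 over all start-proximal regions.

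TRF2 occupancy was then read at the same genes. In 6 of the 9, a TRF2 peak lay within 3 kb of a start in both TRF2 libraries, against 26.9% of protein-coding genes. These were Cdkn1a, Cdkn1b, Cdkn2a, Cdkn2b, Cdkn2c and Mdm2. Cdkn1c and Trp53 had no TRF2 peak in either library, and Rb1 had one at its promoter in replicate 2 only. No IgG peak lay at any of the 9, against 0.251% of coding genes, and that list is short. TRF2 peaks go with open promoters in general: 64.4% of coding genes with a mean Control rank of 90 to 100 had a TRF2 peak in both libraries, 26.9% at 80 to 90 and 13.6% at 70 to 80. Of the 6 genes in the top band, Trp53 was the one without. Cdkn1c and Rb1 in the middle band were without in at least 1 library, and Cdkn2a in the lowest of these bands had one.

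The peaks were weak, with summit pileups of 6 to 14 fragments where these could be solved. With a -log10 q of at least 5 required, only Cdkn2a and Mdm2 kept a TRF2 peak in both libraries, and 14.4% of coding genes did. At Cdkn2a the remaining peaks were at different starts, p16INK4A in replicate 1 and p19ARF in replicate 2, so only Mdm2 kept a shared site near a start. At Mdm2 the folds were 7.02 and 7.45, the highest pair of the 9, and the merged region chr10:117709986-117710540 lay past the first starts and covered that of Mdm2-206. The p53 element printed above lies within it, and Mdm2 is known to have a p53-responsive promoter past its first exon. At Cdkn2b the folds were 7.45 and 5.79 over the first coding exon. At Cdkn2a both libraries had a peak over the p16INK4A start, with 7.10 and 5.86. Near the p19ARF start each had a peak, but the 2 peaks did not overlap, chr4:89294868-89295183 in replicate 1 and chr4:89294512-89294861 in replicate 2. Cdkn1b had 6.32 and 5.21, and Cdkn2c had 6.31 and 4.95. At Cdkn1a the folds were 5.06 and 5.09 over the downstream start, at chr17:29093585-29093911, and the upstream start had none.

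**Figure D5:**
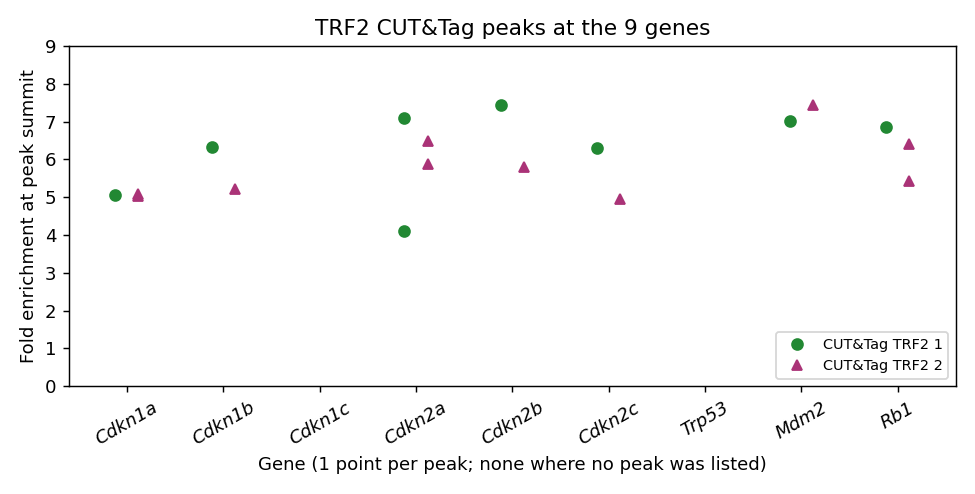
Fold enrichment at the summit of every TRF2 CUT&Tag peak at the 9 genes (y axis), with circles for replicate 1 and triangles for replicate 2. Folds run from 4.12 to 7.45, and Cdkn1c and Trp53 have no point.

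G-quadruplexes are stacks of guanine quartets formed by 4 runs of guanine, and TRF2 is known to bind such structures. A motif of 4 guanine runs, each 3 or more long and 1 to 7 bases apart, was searched on both strands and found in 3 of the 7 TRF2 regions shared by both libraries at the 9 genes, those of Mdm2, Cdkn1b and Cdkn2c. The share was 35.5% over all 7414 shared TRF2 regions and 49.0% over 25040 ATAC regions near starts, which are wider. The motifs are printed on the strand that carries the G runs, the minus strand in all of them, with the runs in capitals. For Mdm2 they lie at chr10:117710364-117710384, chr10:117710309-117710330 and chr10:117710160-117710177, for Cdkn2c, which had 2, at chr4:109666849-109666877, and for Cdkn1b at chr6:134920633-134920650. The regions searched were merged over both libraries. The first and second Mdm2 motifs lie in the peak of replicate 2 only, since that of replicate 1 ends at chr10:117710235.
Mdm2, the first: GGGtGGGagtGGGGGGtGGGG
Mdm2, the second: GGGaGGGGacggaGGGaGGGGG
Mdm2, the third: GGGacGGGtGGGactGGG
Cdkn2c: GGGcagagaaGGGcgcaGGGccgcgaGGG
Cdkn1b: GGGcGGGGaaGGGaGGGG
The strand with the G runs is the coding strand in Mdm2 and Cdkn2c and the template strand in Cdkn1b. The shared TRF2 regions of Cdkn1a, Cdkn2a and Cdkn2b held no such motif in either strand.

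The seventh shared region was unlike the rest. It lay in an intron of Rb1 with folds of 6.86 and 6.39 and no ATAC peak in any library, as did 7.9% of shared TRF2 regions. The part common to both libraries, chr14:73300806-73301024, is given on the strand of Rb1, with runs of at least 6 CA units in capitals.
Rb1 intron: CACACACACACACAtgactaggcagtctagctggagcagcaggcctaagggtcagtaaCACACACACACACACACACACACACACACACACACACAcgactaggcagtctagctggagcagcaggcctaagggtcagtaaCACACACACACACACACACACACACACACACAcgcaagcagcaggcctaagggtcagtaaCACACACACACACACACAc
The runs made up 46.6% of these 219 bases, and 71.2% of them are soft-masked as repeats in the assembly. A run of at least 6 CA or TG units was present in 4.46% of all shared TRF2 regions and in 16.2% of those without an ATAC peak. Reads in repeats can map to more than 1 place, and its part in this peak was not tested. Neither this region nor any other TRF2 region at the 9 genes held 3 units of the telomere repeat TTAGGG in a row, which 0.472% of shared TRF2 regions did.

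The genes whose promoter ranks over all 7 libraries were nearest to those of each member, by Euclidean distance with 0 for no peak, were Lyrm7 for Cdkn1a, Zcchc8 for Cdkn1b, Foxc1 for Cdkn1c, Atp8b3 for Cdkn2a, Idh3g for Cdkn2b, Cdc42bpb for Cdkn2c, Cox4i1 for Mdm2 and Zdhhc13 for Rb1. The distances ran from 0.765 for Cdkn1c to 11.03 for Cdkn2a. The nearest to Trp53 was Wrap53 at a distance of 0, since both take their rank from the same peak.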

How the data were processed

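The 9 genes, the lists and the tests were chosen with earlier results of these data known. Per the submitters' processing notes, reads were aligned to mm10 with Bowtie2 (2.4.4 for CUT&Tag, 2.5.4 for ATAC; the methods text gives another version) and MACS3 was 3.0.0 for CUT&Tag and 3.0.2 for ATAC. The methods, worded for CUT&Tag, state removal of duplicates with Picard 3.1.1, unique proper pairs, peaks by MACS, SEACR 1.3 (stringent) and GoPeaks, and a DiffBind 3.10.1 consensus after blacklist removal. Other caller settings, a transposase shift and the use of IgG in calling are not given in the sources used here, so positions may be off by a few bases. The deposited MACS lists hold a fold (ratio) at the summit, -log10 p and q, and a score rescaled from q that was not used. The deposited SEACR lists hold summed signal, used for position only, as were the GoPeaks lists. The authors' consensus score was not used. No table of reads was used, and total depth is unknown.

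Peaks on chromosomes 1 to 19, X and Y were joined to GENCODE M21 starts (overlap of at least 1 base, coordinates counted from 1). ATAC peaks sharing 1 base were merged, and 61610 regions with a peak in all 4 libraries were fitted with limma 3.58.1 in R 4.3.3 on median-centred log2 fold, 2 Control against 2 TRF2KO, with Benjamini-Hochberg adjustment over all regions. A region takes its strongest peak, and no pseudocount was added. Single ranks were compared by exact permutation. Nothing states that libraries came from separate mice, so p-values measure the spread between libraries. Summit pileup was solved from fold and p. The fit was tested on simulated data. Named genes were the 9 members, Terf2, list genes called by limma near a start and the gene nearest in rank profile to each member.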

Additional observations from a re-analysis of the deposited data

How the results depend on the processing

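All 9 genes kept an ATAC peak at a start in every alternative except SEACR regions (8). The count with a TRF2 peak in both libraries was 6 (6 to 7 without either TRF2 replicate) and fell to 2 at a -log10 q of at least 5, of which Cdkn2a kept no site shared by both libraries. The count of regions called by limma, 1, became 2 without centring (the Rb1 intron and the Cdkn2c coding exon) and 2 at a -log10 q of at least 5 (the Rb1 intron and the Rb1 promoter). It became 0 on within-list percentile rank, where no region passed and 12573 had an unadjusted p under 0.05, and 0 with no filter on all 4 libraries, where none passed and 12131 did. Leaving out any 1 ATAC library gave 0 to 0, with 10910 to 13943 regions at an unadjusted p under 0.05. With the replicate number as a block the call stayed at 1, the Rb1 intron (adjusted p = 0.0438; range over all alternatives 0.0117 to 0.173). The numbers were not treated as pairing the libraries: deviations of same-numbered libraries correlated at 0.0128. Regions found in both libraries of 1 genotype only numbered 0, against 1 with GoPeaks and 6 as stretches of at least 200 bases, and 1 to 6 without 1 ATAC library, a looser condition by construction. Member TRF2 regions with a G4 motif numbered 3, and 1 at a -log10 q of at least 5, where 2 regions remained. The median rank difference of the 9 genes ran from -0.427 to 0.431 without 1 ATAC library. For Cdkn1a, Cdkn2a, Mdm2 and Rb1 the sign of the rank difference held in all 6 alternatives. In the leave-outs it could not change, since both TRF2KO ranks of these genes lay on the same side of both Control ranks. Coding starts alone gave the same or nearly the same values, so the sign was hardly tested. Stretches, leave-outs of genotype-only regions and coding starts for ranks were added after the data were seen. With 2 libraries a group and no read counts, small differences were not detectable.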

Other observations

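In the whole genome, 7 stretches covered in both TRF2KO libraries and neither Control library were at least 1000 bases long, and 2 of them lay within 3 kb of a coding gene start. These were the one at Cdkn1a (2031 bases) and one at Phlda3 (1095 bases, chr1:135768504-135769598), another target of p53. A p53 element with at most 2 mismatches and no spacer was found in 2 of the 7, and in 2.72% of all 1801 such stretches. One of the 2 is the Cdkn1a stretch whose element is described above, so it is no separate case. The 2 were the widest of the 7, at 2031 and 1971 bases, whereas the median over the 1801 was 252, so these shares are not matched for width. In windows of 2031 bases the share was 1.81% around coding gene starts and 2.64% around the peak summits of TRF2KO 2. The second stretch with the element, chr6:39284559-39286529, had no coding gene start within 3 kb. Phlda3 was singled out after its values were seen, and its promoter ranks were 89.2 and 93.2 in Control and 95.3 and 94.9 in TRF2KO.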
